A study of Mus musculus with 6 samples.

Results

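The chemokines and inflammatory mediators described here are 10 genes chosen by symbol: the CC chemokines Ccl2 and Ccl7, the CXC chemokines Cxcl1, Cxcl5 and Cxcl12, the membrane-bound chemokine Cx3cl1, the cytokine Il6, the prostaglandin-forming enzyme Ptgs2, the endotoxin co-receptor Cd14 and the NF-κB inhibitor Nfkbia. All 10 were found among the 16854 genes of the expression table. RNA was sequenced from 6 libraries of C2C12 cells, a mouse myoblast line that leaves the cell cycle and fuses into myotubes when serum is lowered. The knockdown cells stably carried a short hairpin RNA against Adamtsl2, whose product is a glycoprotein secreted into the matrix around cells (3 libraries). The control cells stably carried a scramble hairpin (3 libraries). Cells of both groups were moved at confluence to medium with 2% horse serum and collected on day 3, and the labels name no cytokine or endotoxin treatment. The title of the series places its question in Wnt signalling during myogenesis. Effects of Adamtsl2 loss, of other targets of the hairpin and of differences between the stable lines cannot be told apart. The labels do not say whether libraries of a group came from separate cultures, so the p-values measure only the spread between these libraries.

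Chemokines are small secreted proteins that guide cells along a gradient through G protein-coupled receptors. Ccl2 and Ccl7 attract monocytes through Ccr2, Cxcl1 and Cxcl5 attract neutrophils through Cxcr2, Cxcl12 guides progenitor cells through Cxcr4, and Cx3cl1 tethers cells that carry Cx3cr1. Many of these genes, together with Il6 and Ptgs2, are switched on by the transcription factor NF-κB. Cd14 passes bacterial lipopolysaccharide to the Tlr4 receptor, which activates NF-κB, and Nfkbia encodes IκBα, the inhibitor that NF-κB itself induces and that holds it in the cytoplasm. In injured muscle these signals come from satellite cells, fibroblastic progenitors and infiltrating leukocytes, and Il6, Cxcl12 and prostaglandins act on myoblast growth, migration and fusion.

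Values are normalised counts, which are read counts divided by a size factor for each library, and the libraries held 37346439 to 50329438 counted reads. Whether both ends of a read pair were counted is not given; these totals are above the range the labels state for a library, and if both ends were counted, the counting intervals given here are too narrow. Adamtsl2 was at 23.2, 21.7 and 7.83 in the knockdown libraries and at 1325, 1266 and 1307 in the control libraries. Knockdown library 3 stood apart from the other knockdown libraries: the correlation of its log2 values with theirs was 0.917 and 0.920, against 0.996 between knockdown libraries 1 and 2 and 0.993 to 0.995 among control libraries. Of its reads 2.83% came from Malat1, a nuclear noncoding RNA, against 0.302% to 0.515% in the other libraries. Of 12 skeletal muscle markers, 11 fell and 1 rose, and their summed level was 10790 to 13301 in knockdown libraries and 1171330 to 1194310 in control libraries. Of 8 fibroblast and mesenchymal markers tested, 4 rose, 1 fell and 3 did not pass the test (5 rose and 3 fell without knockdown library 3), with summed levels of 351435 to 491638 in knockdown and 466141 to 493347 in control libraries. The control sums were nearly all Col3a1 (459949, 484948 and 457882), so the sums say little about the other markers. In group means Ly6a rose 247-fold, Cd34 82.9-fold, Dcn 19.8-fold and Clec3b 2896-fold, the last from 4 to 7 reads in a control library. Pi16 fell 6.22-fold, and Col3a1, Lum and Pdgfra did not pass the test. Fewer cells of a type and less RNA per cell cannot be told apart in these bulk libraries, and the part of the muscle and mesenchymal genes in the changes described here was not tested.

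Most of the 10 genes were more abundant in the knockdown cells. All 6 chemokine members rose, by 3.51-fold to 68.9-fold in the group means, as did Cd14 (7.86-fold) and Nfkbia (3.87-fold), whereas Ptgs2 was 2.97-fold lower and Il6 did not pass the test. The test was limma on log2(normalised count + 1), two-sided, with Benjamini-Hochberg adjustment over 16245 genes and a threshold of 0.05. By it 8 of the 10 members were higher in knockdown cells, where 21.7% of all tested genes were, and 1 was lower, where 23.5% were; together 9 members were called, and 45.2% of all tested genes. The same numbers of members were called without knockdown library 3, where the shares of all tested genes were 38.6% higher and 39.9% lower. The median log2 change of the members was 2.39, against -0.00 over all tested genes. The 3 knockdown values lay wholly above the 3 control values for 8 members and wholly below for 1, which was so for 30.0% and 32.7% of the tested genes (62.6% in either direction). With 3 against 3 libraries an exact two-sided permutation test of 1 gene cannot go below 0.1.

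**Figure D1:**
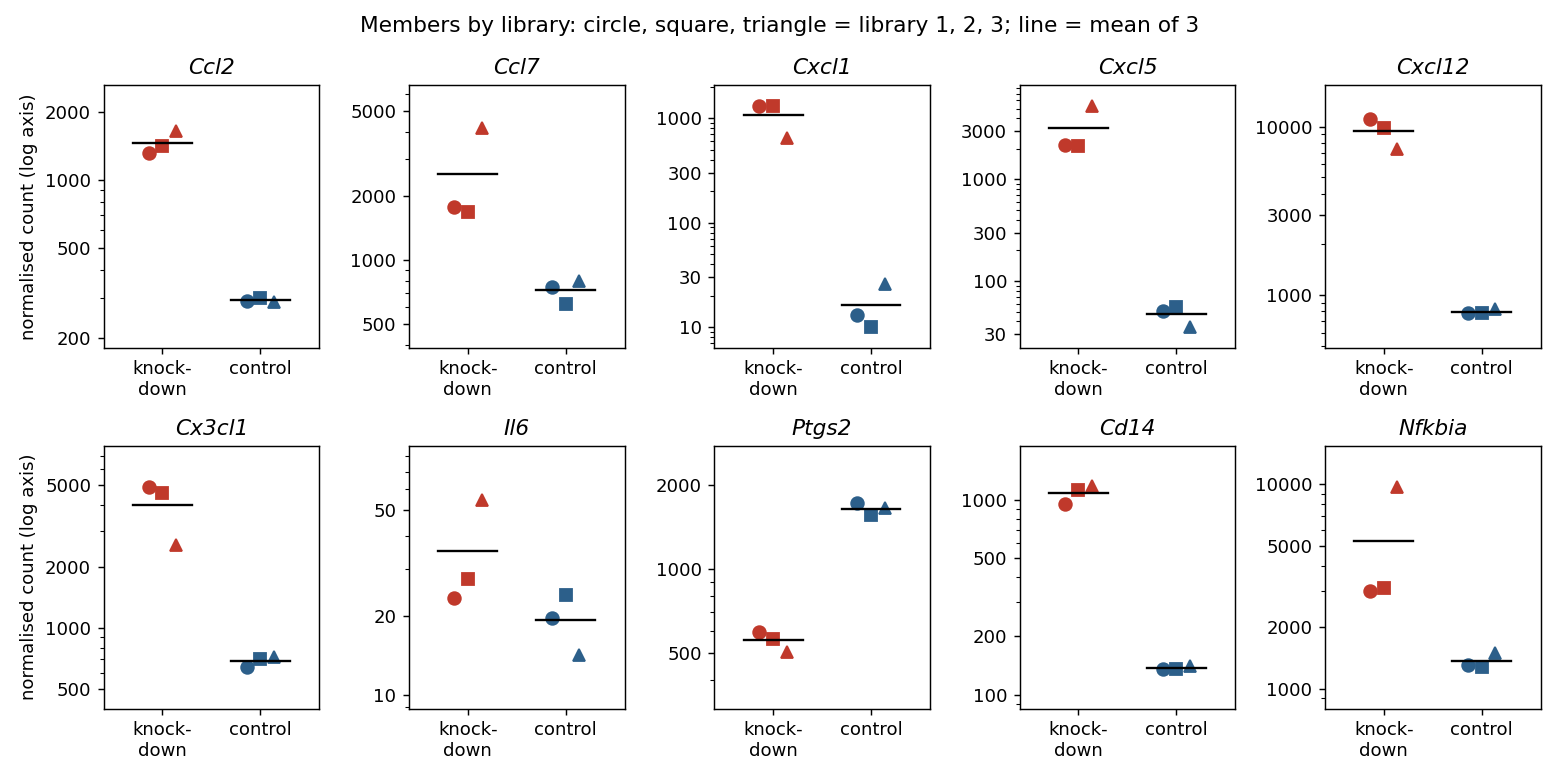
Normalised counts of the 10 members in each library, on log axes that differ between panels; circles, squares and triangles are libraries 1, 2 and 3 of the knockdown (left) and control (right) group, and lines are group means. The groups do not overlap for any member except Il6, and knockdown library 3 lies apart from libraries 1 and 2 for Ccl7, Cxcl1, Cxcl5, Cx3cl1, Il6 and Nfkbia.

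Promoter sequence could be matched in RefSeq (GRCm38.p6) for 6 members, Cxcl1, Cxcl12, Cx3cl1, Il6, Ptgs2 and Nfkbia, each as a window of 250 bases before and 50 bases after the start. The NF-κB consensus, searched on both strands, was found in the windows of Cxcl1, Il6 and Nfkbia, and in 4.50% of all 32817 promoter windows (1478). The stretches of 150 bases before the start are shown for these 3 genes, which differ in how they changed, and for Ptgs2, whose window held no match; capitals mark the matched letters, which in Cxcl1 are 2 overlapping matches. The windows of Cxcl12 and Cx3cl1, which are not shown, held no match either. A match is a run of letters and not a site of binding. The stretches, each read along the strand of its gene, lie at chr5:90891095-90891244 on the plus strand for Cxcl1, chr5:30012964-30013113 on the plus strand for Il6, chr12:55492648-55492797 on the minus strand for Nfkbia and chr1:150099881-150100030 on the plus strand for Ptgs2.
Cxcl1: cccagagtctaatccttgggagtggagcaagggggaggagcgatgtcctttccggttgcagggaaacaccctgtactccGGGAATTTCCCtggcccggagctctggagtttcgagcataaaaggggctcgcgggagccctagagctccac
Il6: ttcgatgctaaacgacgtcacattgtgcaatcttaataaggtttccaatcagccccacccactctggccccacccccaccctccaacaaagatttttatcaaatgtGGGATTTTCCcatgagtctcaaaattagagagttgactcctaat
Nfkbia: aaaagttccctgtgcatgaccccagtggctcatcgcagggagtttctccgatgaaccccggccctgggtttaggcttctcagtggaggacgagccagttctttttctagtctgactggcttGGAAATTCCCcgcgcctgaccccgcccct
Ptgs2: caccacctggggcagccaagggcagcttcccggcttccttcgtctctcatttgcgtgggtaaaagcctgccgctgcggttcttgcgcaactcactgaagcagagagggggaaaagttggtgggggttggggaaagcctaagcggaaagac

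Ccl2 and Ccl7, both ligands that draw monocytes, rose in the knockdown cells. Ccl2 was at 1308, 1416 and 1640.0 in the knockdown libraries and at 289.8, 301 and 289 in the control libraries. The 3 libraries of each group lay close together, and the groups were far apart. Mean levels were 1455 ± 169 in knockdown and 293 ± 6.53 in control cells (SD, n = 3 each), a log2 change of 2.30 ± 0.13 (SE) with an adjusted p of 7.0e-05 in limma. Ccl7 was at 1774, 1685 and 4155 in the knockdown libraries and at 749.6, 620.2 and 802 in the control libraries. All knockdown values exceeded all control values, and knockdown library 3 was 2.40 times the mean of libraries 1 and 2. The log2 change of Ccl7 was 1.68 ± 0.37 with an adjusted p of 0.012 in limma, and 1.26 without knockdown library 3. Without control library 2 the adjusted p was 0.053 and the call was lost.

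The genes of the pair lie on the plus strand of chromosome 11 (GRCm38), Ccl2 at chr11:82035571-82037453 and Ccl7 at chr11:82045712-82047525, 8258 bases apart in the cluster of monocyte and eosinophil chemokines. Ccl8, a monocyte attractant of the same cluster, was at 528, 502 and 1537 in knockdown and at 32.7, 32.8 and 41.8 in control libraries, and rose by 4.34 ± 0.46 on the log2 scale (adjusted p 6.7e-04, limma). Ccl11, the eosinophil attractant eotaxin, was at 104, 98.7 and 260.5 in knockdown and at 38.1, 44.2 and 28.5 in control libraries (log2 change 1.90, adjusted p 0.014); it was named for its place in the cluster after its values had been seen. In Ccl8 and Ccl11, as in Ccl7, knockdown library 3 was the highest by far, at 2.98 and 2.57 times the mean of libraries 1 and 2. The ratio of Ccl2 to Ccl7, both as normalised count per kb of exon, was 0.519, 0.592 and 0.278 in knockdown libraries and 0.272, 0.341 and 0.254 in control libraries, which put knockdown libraries 1 and 2 above every control library and library 3 within the control range. Ccl1 and Ccl12 of this cluster were not analysed here.

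Outside the cluster, Ccl5, which attracts T cells and monocytes, was at 228, 235 and 497 in knockdown libraries, against 1.09, 1.26 and 0.950 in control libraries, where it had 1 read each. The ratio of its scaled reads was 279.6-fold, with an exact 95% counting interval of 95.4-fold to 1358-fold that covers counting error only. Ccl9, an attractant of myeloid cells, rose by 2.24 ± 0.36 on the log2 scale. Ccl25, a thymus and gut chemokine, fell by 0.88. Of the 5 CC chemokines outside the member list that were tested, 4 thus rose and 1 fell, with a median log2 change of 2.24 against -0.00 over all genes, and the counts were the same without knockdown library 3. Among all tested genes 21.7% rose and 23.5% fell, and 38.6% and 39.9% without that library.

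Cxcl1 and Cxcl5, neutrophil attractants that share the Glu-Leu-Arg motif, were scarce in control cells and abundant in knockdown cells. Cxcl1 was at 1305, 1299 and 647 in the knockdown libraries, against 13.1, 10.1 and 25.7 in the control libraries, where it rested on 8 to 27 reads. Libraries 1 and 2 of the knockdown were alike and library 3 was 0.497 times their mean. The group means were 1084 ± 378 in knockdown and 16.3 ± 8.25 in control cells, a ratio of 66.6 with all knockdown libraries and 80.0 without library 3. Its log2 change was 6.0 ± 0.44 (95% interval 4.93 to 7.07, adjusted p 1.6e-04, limma). Cxcl5 was at 2203, 2158 and 5337 in the knockdown libraries, against 50.1, 55.6 and 35.2 in the control libraries. Here library 3 stood on the other side of its fellows, at 2.45 times their mean. The group means of Cxcl5 were 3233 ± 1822 in knockdown and 46.9 ± 10.6 in control cells, a ratio of 68.9 with all knockdown libraries and 46.4 without library 3. The log2 change was 5.96 ± 0.40 (95% interval 4.98 to 6.95, adjusted p 1.2e-04, limma). Of all tested genes, 99.3% had a lower log2 change than Cxcl1, and likewise 99.3% than Cxcl5.

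Cxcl5 (chr5:90759360-90761624) and Cxcl1 (chr5:90891241-90893115) lie 129616 bases apart on the plus strand of chromosome 5, with other CXC genes between them. Ppbp, a platelet chemokine precursor, was at 44.8, 56.0 and 52.5 in knockdown libraries and at 4.36, 1.26 and 3.80 in control libraries. Cxcl15, the chemokine lungkine, was at 43.9, 51.9 and 68.2 in knockdown libraries and at 0, 1.26 and 2.85 in control libraries. Both rose, by 3.74 ± 0.42 and 4.73 ± 0.56 on the log2 scale, with at most 4 reads in any control library. Pf4, platelet factor 4, was too low to be tested, at 14.1, 7.53 and 52.5 in knockdown and 2.18, 1.26 and 2.85 in control libraries. Downstream of the cluster, the neighbours with values were Mthfd2l, a mitochondrial folate enzyme (log2 change -0.20, adjusted p 0.21), and the growth factors Epgn (-2.87, adjusted p 0.028) and Ereg (1.45, adjusted p 0.0011), so the chemokine genes rose beside neighbours that rose, fell and did not pass the test. Pf4 and these 3 neighbours were named for their position after their values had been seen. Cxcl2 and Cxcl3 were not analysed here.

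Of the other CXC chemokines, Cxcl16, a transmembrane chemokine, was at 48.9, 38.5 and 90.5 in knockdown and at 9.81, 13.9 and 9.50 in control libraries and rose by 2.25 ± 0.40 on the log2 scale. Cxcl13, which attracts B cells, went the other way, at 0, 0 and 3.35 in knockdown libraries against 82.8, 56.8 and 68.4 in control libraries. With 3 reads in all knockdown libraries together, its scaled reads were 76.8-fold lower, with a counting interval of 25.9-fold to 376-fold. In this list 3 of the 4 tested genes rose and 1 fell (median log2 change 2.99 with all libraries), with or without knockdown library 3. Ppbp, Cxcl15 and Cxcl13 reached the filter value of 10 only in the group where they were high. A large change of these genes was thus nearly fixed once they were tested, which limits the counts and the median. All tested genes rose in 21.7% and fell in 23.5% of cases, and in 38.6% and 39.9% without that library.

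Cxcl12, also called stromal cell-derived factor, rose in all 3 knockdown libraries relative to every control library. It was at 11029, 9824 and 7340.1 in the knockdown libraries and at 779, 784 and 830.4 in the control libraries. Control libraries were nearly equal, and the lowest knockdown library still held many times their level. The means were 9398 ± 1881 in knockdown and 798 ± 28.2 in control cells, an 11.8-fold difference, with a log2 change of 3.54 ± 0.17 (adjusted p 4.1e-05, limma). Its main receptor moved in the opposite direction. Cxcr4 was at 623, 690.1 and 800.4 in knockdown and 1742, 1895 and 1784 in control libraries and fell by 1.36 ± 0.13 on the log2 scale (adjusted p 4.9e-04). Ackr3, the scavenging receptor of Cxcl12, was at 192, 171 and 124 in knockdown and 174, 254 and 179 in control libraries and did not pass the test (log2 change -0.32, 95% interval -0.93 to 0.29, adjusted p 0.34).

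Cx3cl1, which is made as a membrane protein and shed by proteases, was at 4893, 4604 and 2561 in the knockdown libraries and at 643, 707 and 723 in the control libraries. Library 3 of the knockdown was 0.539 times the mean of its fellows and still above every control library. Means were 4019 ± 1271 in knockdown and 691 ± 42.5 in control cells, and the log2 change was 2.48 ± 0.26 (adjusted p 6.7e-04, limma). The transcript of its receptor Cx3cr1 was low, at 12.4, 6.69 and 71.5 in knockdown and 4.36, 2.53 and 3.80 in control libraries, and was not tested. Cxcl12 lies at chr6:117168535-117181367 and Cx3cl1 at chr8:94772009-94782427, both on the plus strand.

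Of 9 chemokine receptors tested, 2 rose, 2 fell and 5 did not pass the test, with a median log2 change of -0.22. The share in each direction was 22.2%, close to the 21.7% and 23.5% of all tested genes. Without knockdown library 3, 4 rose and 4 fell, where the shares of all tested genes were 38.6% and 39.9%. Ackr4, which removes homeostatic CC chemokines from tissue, was at 679, 676 and 434 in knockdown and at 75.2, 39.2 and 74.1 in control libraries, a log2 change of 3.26 ± 0.33. Ccrl2, an atypical receptor, had 66 reads over the knockdown and 3 over the control libraries, an 18.4-fold ratio with a counting interval of 6.04-fold to 91.7-fold. Ccr7, which guides lymphocytes to lymph nodes, fell, with levels of 1.66, 2.51 and 3.35 in knockdown and 31.6, 26.5 and 18.1 in control libraries. The receptors Ccr2 and Cxcr2 were not analysed here.

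Because genes differ in length, levels were set against each other per kb of exon. The 6 chemokine members summed to 7837, 7572 and 11388 normalised counts per kb in knockdown libraries and to 1483, 1349.5 and 1573 in control libraries. Ccl7 was the largest part of that sum in every library of both groups, at 28.3%, 27.8% and 45.6% in knockdown and 63.1%, 57.4% and 63.6% in control libraries. The shares of Cxcl12 (17.2%, 15.9% and 7.88% in knockdown, 6.42%, 7.11% and 6.46% in control libraries), of Cxcl5 (15.1%, 15.3% and 25.2% in knockdown, 1.81%, 2.21% and 1.20% in control libraries) and of Cxcl1 (8.88%, 9.15% and 3.03% in knockdown, 0.470%, 0.399% and 0.870% in control libraries) were larger in every knockdown library than in any control library. The share of Cx3cl1 was 15.9%, 15.5% and 5.72% in knockdown and 11.03%, 13.3% and 11.7% in control libraries, so library 3 fell below the controls while libraries 1 and 2 lay above them. Per kb, Ccl7 thus made up most of the summed level of these 6 genes in control libraries, and less than that in every knockdown library. The length covers the exons of all transcripts of a gene, 801 bases for Ccl7 and 8176 for Cxcl12. In normalised counts not set per kb, the control mean of Cxcl12 (798) was above that of Ccl7 (724).

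Over all 10 members, the order per kb in knockdown cells was Nfkbia (3274), Ccl7 (3169), Cxcl5 (1735), Ccl2 (1278), Cxcl12 (1149), Cx3cl1 (1023), Cd14 (625), Cxcl1 (578), Ptgs2 (121) and Il6 (14.5). Neighbours in this order overlapped between libraries down to Cxcl1, and both Ptgs2 and Il6 were set off from the gene above them. In control cells the order was Ccl7 (904), Nfkbia (846), Ptgs2 (359), Ccl2 (258), Cx3cl1 (176), Cxcl12 (97.6), Cd14 (79.5), Cxcl5 (25.2), Cxcl1 (8.68) and Il6 (7.94). Only Ccl7 with Nfkbia and Cxcl1 with Il6 overlapped there. Ptgs2 stood above Ccl2 in control cells and below every member but Il6 in knockdown cells.

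**Figure D2:**
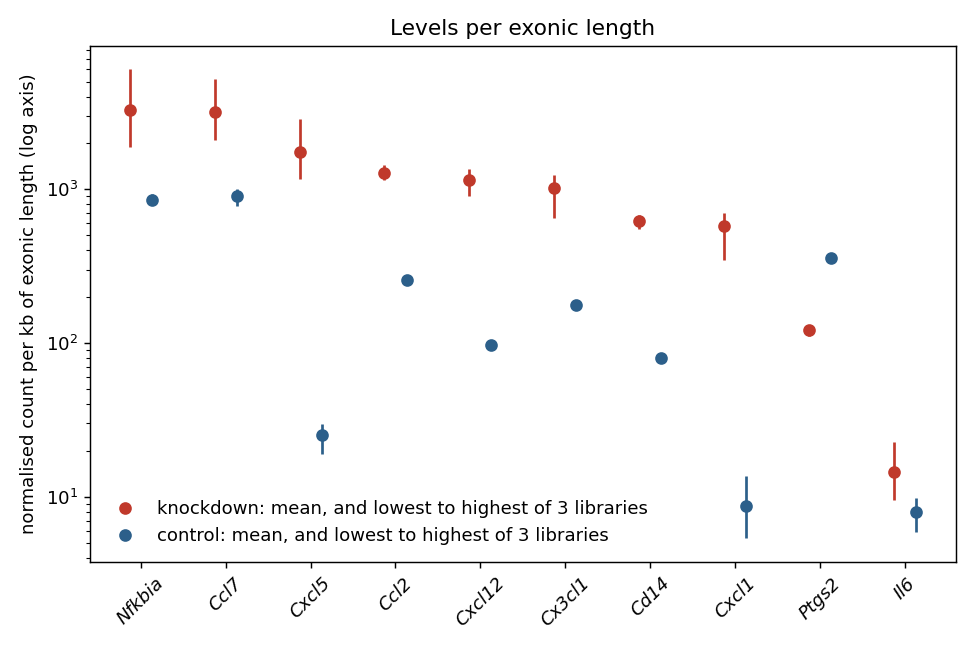
Levels of the members as normalised counts per kb of exon on a log axis, knockdown left of control for each gene; points are means and bars run from the lowest to the highest of 3 libraries. Il6 is lowest in both groups (means 14.5 in knockdown and 7.94 in control), and Ptgs2 is the 1 member whose knockdown values (mean 121) lie below its control values (mean 359).

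Il6, the cytokine that contracting muscle and inflamed tissue release, was low in both groups. It was at 23.2, 27.6 and 54.8 in the knockdown libraries and at 19.6, 24.0 and 14.3 in the control libraries, with 28 to 49 reads in a knockdown library and 15 to 19 in a control library. The groups overlapped, since knockdown library 1 lay below control library 2. The log2 change of 0.77 ± 0.41 had a 95% interval of -0.24 to 1.78 and an adjusted p of 0.18 (limma), and was 0.40 without knockdown library 3, with an adjusted p of 0.24. In the authors' deposited table its adjusted p was likewise above the threshold, at 0.19. The gene lies at chr5:30013114-30019981 on the plus strand, on the same chromosome as Cxcl1 and Cxcl5.

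The ligand-binding chain of the receptor of Il6 rose. This gene, Il6ra, was at 4389, 4299 and 8742 in knockdown libraries and at 438, 443 and 486 in control libraries, a log2 change of 3.59 ± 0.29 (adjusted p 2.4e-04, limma). Il6st, the shared signalling chain gp130, was at 15129, 14808 and 6679 in knockdown and at 9150.3, 9268 and 8563 in control libraries. The groups overlapped through knockdown library 3 alone: the log2 change was 0.35 ± 0.33 (adjusted p 0.44) with it and 0.74 (adjusted p 3.1e-07) without it. Il11ra1, the receptor chain for interleukin 11, rose by 3.39 ± 0.29 and the kinase Jak2 by 2.12 ± 0.25 on the log2 scale, whereas Lif, a cytokine of the same family, fell to 103, 89.5 and 53.7 in knockdown libraries, against 535, 524 and 505 in control libraries. Of 16 genes of the Il6 family pathway tested, 6 rose, 1 fell and 9 did not pass the test (median log2 change 0.30), while without knockdown library 3, 13 rose and 3 fell. Over all tested genes 21.7% rose and 23.5% fell, and 38.6% and 39.9% without that library.

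Ptgs2, the inducible cyclooxygenase, was the 1 member that fell. It was at 595, 562 and 505 in the knockdown libraries and at 1729, 1559 and 1650.3 in the control libraries. Libraries within each group were close, and every knockdown value lay far below every control value. Means were 554 ± 45.5 in knockdown and 1646 ± 85.4 in control cells (log2 change -1.57 ± 0.12, adjusted p 1.9e-04, limma). The gene lies at chr1:150100031-150108227 on the plus strand.

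Its constitutive counterpart moved the other way. Ptgs1, cyclooxygenase 1, was at 6280.1, 6291 and 6024 in knockdown and at 2027, 1725 and 2024 in control libraries and rose by 1.69 ± 0.12 on the log2 scale. Hpgd, which breaks prostaglandins down, was at 3495, 3783 and 3507 in knockdown and at 45.8, 51.8 and 58.9 in control libraries (log2 change 6.09 ± 0.15, adjusted p 4.7e-06, limma). These changes differed little between the 3 knockdown libraries. Among the synthases, Ptgds, which makes prostaglandin D, was at 1.66, 0.836 and 5.59 in knockdown libraries against 571, 510.3 and 593 in control libraries, and Ptges2, a prostaglandin E synthase, fell by 0.96. Ptgfr, the receptor for prostaglandin F, rose by 2.67 ± 0.21 on the log2 scale. Ptger4, a receptor for prostaglandin E, was at 450.2, 421 and 426 in knockdown and 588, 633 and 611 in control libraries, a log2 change of -0.50 ± 0.12 with an adjusted p of 0.015 that was lost when any control library or knockdown library 2 was left out (0.064 to 0.071). Ptger1, another receptor for prostaglandin E, rose by 2.46 ± 0.22 on the log2 scale (adjusted p 3.7e-04, limma) and was named after its values had been seen. Of 16 tested genes of prostaglandin synthesis, breakdown and reception, 6 rose (37.5%), 3 fell (18.8%) and 7 did not pass the test (median log2 change 0.13), while 7 rose and 5 fell without knockdown library 3 and the falls numbered 2 to 5 over the fits with 1 library left out. Beside this, 21.7% of all tested genes rose and 23.5% fell, and 38.6% and 39.9% without knockdown library 3. Over the fits with 1 library left out, 2648 to 6485 of all 16245 tested genes fell. Ptger2 was not analysed here.

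Cd14, the anchored co-receptor for lipopolysaccharide, was at 948, 1120.0 and 1182 in the knockdown libraries and at 136, 136 and 141 in the control libraries. Its control libraries were the most alike of any member, and every knockdown library was far above them. Means were 1083 ± 121 in knockdown and 138 ± 2.49 in control cells, with a log2 change of 2.96 ± 0.14 (adjusted p 3.8e-05, limma). Cd14 lies on chromosome 18 and is often used as a marker of macrophages. Of 14 macrophage and leukocyte markers, 6 were in the table and tested: Lyz2 rose, Itgam and Mrc1 fell, and Csf1r, Cd68 and Fcer1g did not pass the test. Without knockdown library 3, Csf1r and Fcer1g fell too, which made 1 higher and 4 lower. Their summed level was 114, 125 and 245 in knockdown libraries and 150.4, 162 and 181 in control libraries, so libraries 1 and 2 of the knockdown lay below every control library and library 3 above. Itgam was at 0 in knockdown libraries 1 and 2, and no marker was at 0 in every library of a group. Of 7 endothelial markers 4 were in the table and 3 were tested, of which 1 rose and 2 fell, with sums of 34.0, 35.1 and 159.9 in knockdown and 269, 241 and 302 in control libraries. The defining markers Ptprc, Adgre1, Cdh5 and Kdr were not analysed here.

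Of the other parts of the endotoxin receptor, Ly96 rose and Tlr4 did not pass the test. Ly96, the partner that lets Tlr4 bind lipopolysaccharide, was at 214, 201 and 246 in knockdown and 102, 75.8 and 96.0 in control libraries and rose by 1.27 ± 0.20 on the log2 scale. Tlr4 was at 3217, 3255 and 899 in knockdown and 828, 819.7 and 744 in control libraries. Knockdown library 3 lay just above the controls and far below its fellows. The log2 change of Tlr4 was 1.41 ± 0.51 with an adjusted p of 0.068, and 2.02 with an adjusted p of 1.0e-09 without that library (limma). It also passed with upper-quartile scaling, edgeR or DESeq2, with adjusted p of 0.039, 0.033 and 0.0025. Tlr2, a receptor for bacterial lipoproteins, rose by 1.86 ± 0.13 and Tlr3, a receptor for double-stranded RNA, by 3.40 ± 0.33. Tlr1 (-2.97) and Tlr6 (-1.10), the partners of Tlr2, and Irak3 (-1.19), an inhibitor of Toll-like receptor signalling, fell, Tlr6 with an adjusted p of 0.033 that was lost without any 1 control library (0.093 to 0.10). Of 18 pathway genes tested, 5 rose (27.8%), 3 fell (16.7%) and 10 did not pass the test, beside 21.7% and 23.5% of all tested genes. Without knockdown library 3, 10 rose and 4 fell, beside 38.6% and 39.9% of all tested genes. Without any 1 control library 3 of the list rose. Over all 16245 tested genes the rises dropped too, to 2443 to 2608 from 3519 with all libraries.

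Nfkbia was at 3024, 3112 and 9674 in the knockdown libraries and at 1314, 1281 and 1492 in the control libraries. Each knockdown library exceeded each control library, and library 3 was 3.15 times the mean of libraries 1 and 2, the widest gap among the members. Means were 5270.4 ± 3814 in knockdown and 1362 ± 113 in control cells, a 3.87-fold difference that was 2.25-fold without library 3. The log2 change was 1.73 ± 0.46 (95% interval 0.60 to 2.86, adjusted p 0.025, limma). Without knockdown library 3 it was 1.17 with an adjusted p of 1.1e-07, and without control library 1, 2 or 3 the adjusted p was 0.082, 0.086 or 0.073, above the threshold. With all libraries the adjusted p was 0.022 in edgeR and 4.1e-04 in DESeq2, and 4.0e-04 in the authors' deposited table. The gene lies at chr12:55489410-55492647 on the minus strand.

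Of 18 genes of the NF-κB machinery tested, 4 rose (22.2%), 5 fell (27.8%) and 9 did not pass the test, shares close to the 21.7% and 23.5% of all tested genes. The median log2 change was -0.03, and 0.25 without knockdown library 3. The rises were small and did not withstand the loss of a library: Nfkb1 (log2 change 0.53, adjusted p 0.025), Rel (0.58, adjusted p 0.025), both DNA-binding subunits, and Nfkbiz (0.51, adjusted p 0.038), a nuclear IκB protein, all lost the call when any library other than knockdown library 3 was left out. In those fits limma called 0 genes of the list higher, with 2 to 3 at an unadjusted p under 0.05. Calls fell over all 16245 tested genes too, with 2443 to 2930 higher in those fits against 3519 with all libraries. With all libraries edgeR and DESeq2 each called 5 of the list higher, beside 3765 and 4343 of all tested genes. Without knockdown library 3, where 38.6% of all tested genes rose and 39.9% fell, 10 of the list rose and 8 fell. Without any 1 control library 3 of the list fell, beside 2648 to 2778 of all tested genes. Rela, the main activating subunit, was at 4270.5, 4335 and 2939 in knockdown and 3162, 3017 and 3087 in control libraries (log2 change 0.30, adjusted p 0.23), with a change of 0.48 and an adjusted p of 4.9e-06 without knockdown library 3 and of 0.41 and 0.047 with upper-quartile scaling. The 3 falls with the smallest adjusted p were larger than these rises. Bcl3, a nuclear IκB protein, fell by 1.64 ± 0.19, the kinase Map3k14 by 1.16 ± 0.19 and Nfkbib, a second cytoplasmic inhibitor, by 0.91 ± 0.12 on the log2 scale. Nfkbia and Nfkbib, both cytoplasmic inhibitors, were thus called in opposite directions. Nfkbie, a further inhibitor of this kind, was called higher (log2 change 0.75, adjusted p 0.046, limma). It was named after its values had been seen, and its call too was lost when any library other than knockdown library 3 was left out.

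Other known NF-κB target genes split. Of 14 tested, 8 rose (57.1%), 5 fell (35.7%) and 1 did not pass the test (median log2 change 0.57), with the same counts without knockdown library 3. The shares of all tested genes were 21.7% higher and 23.5% lower, and 38.6% and 39.9% without that library. Vcam1, an adhesion molecule for leukocytes, was at 7641, 7450.4 and 5503 in knockdown and 1215, 1045 and 1149.6 in control libraries and rose by 2.58 ± 0.16 on the log2 scale. Cebpd, a transcription factor of the acute phase, rose by 2.03 ± 0.17. Mmp3, a matrix protease, had 71 reads over the knockdown and 1 over the control libraries, a 59.5-fold ratio with a counting interval of 10.3-fold to 2383-fold. Il1rn, the antagonist of the interleukin 1 receptor, was at 0, 0.836 and 3.35 in knockdown and 511, 374 and 450.3 in control libraries, and Sod2, the mitochondrial superoxide dismutase, was at 2019, 2110.4 and 2618 in knockdown and 5900.1, 5867 and 6017 in control libraries. Both fell, with log2 changes of -7.79 ± 0.56 and -1.41 ± 0.13, as did Lif. Tnf, Il1a and Il1b were not analysed here. Of the 3 members with the consensus in the promoter window, Cxcl1 and Nfkbia rose and Il6 did not pass the test. Of the searched members without a match, Cxcl12 and Cx3cl1 rose and Ptgs2 fell. A link between match and change was not tested.

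**Figure D3:**
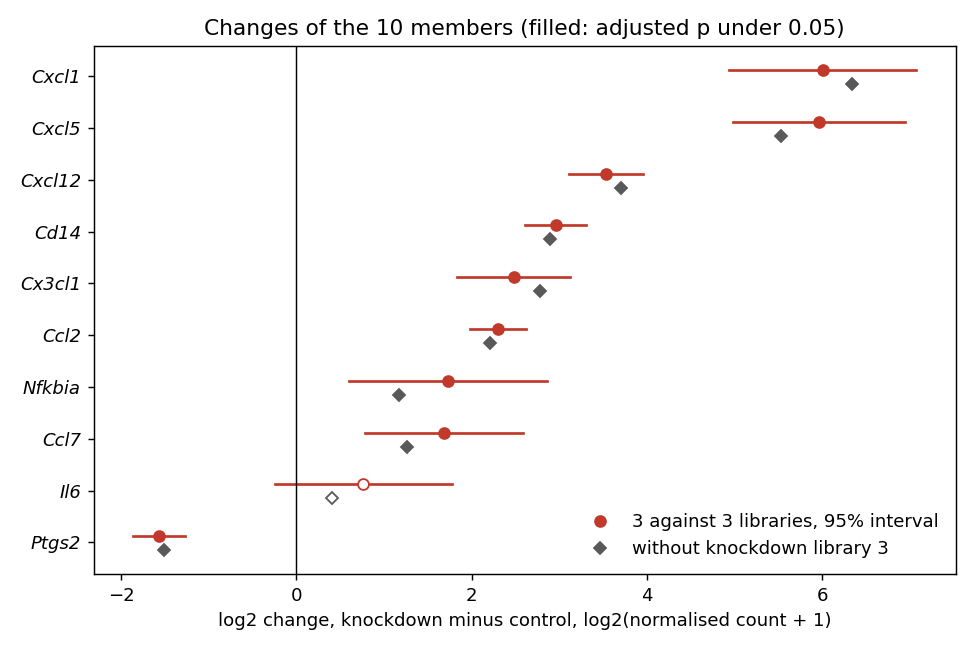
Log2 changes of the members, knockdown minus control on log2(normalised count + 1), from limma; circles are the values with all libraries, with 95% intervals, and diamonds the values without knockdown library 3. Cxcl1 (6.0) and Cxcl5 (5.96) lie highest, the interval of Il6 (-0.24 to 1.78) spans 0, and Ptgs2 (-1.57) is the 1 member below 0.

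Over all 8 lists of related genes together, 99 genes were tested, of which 38 (38.4%) rose and 20 (20.2%) fell, with a median log2 change of 0.30. Over all tested genes the shares were 21.7% and 23.5%. Without knockdown library 3, 59 rose and 30 fell, and the shares over all tested genes were then 38.6% and 39.9%. The ligand lists, other CC chemokines and other CXC and C chemokines, had the highest medians of these pathway lists with or without that library. Those medians include Ccl5, Ppbp, Cxcl15 and Cxcl13, which passed the filter only through the group where they were high.

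**Figure D4:**
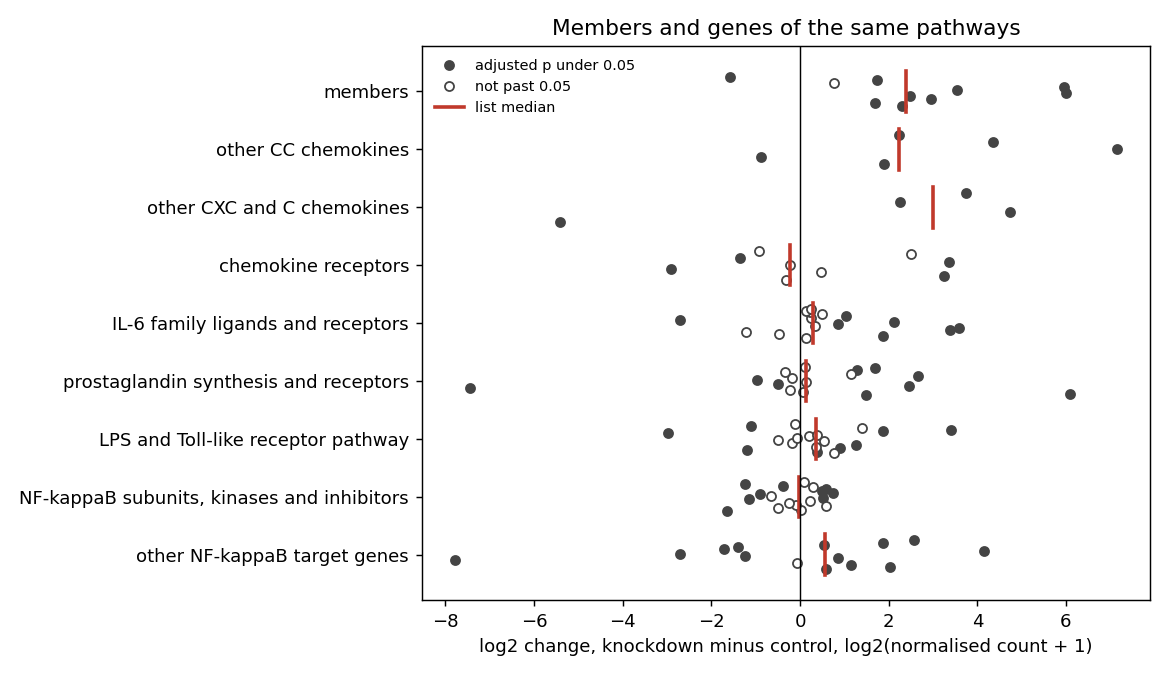
Log2 change of each tested gene of the member list and of 8 lists of related genes, knockdown minus control; filled points passed an adjusted p of 0.05 and red lines are list medians. The members (median 2.39) and the other CC and CXC chemokines (medians 2.24 and 2.99) lie to the right. Ccl5, Ppbp, Cxcl15 and Cxcl13 among them passed the filter only through the group where they were high. The median of the NF-κB machinery is -0.03 (0.25 without knockdown library 3, not drawn).

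The members did not vary together among the knockdown libraries. Relative to the mean of libraries 1 and 2, library 3 was at least 1.5 times higher for Ccl7, Cxcl5, Il6 and Nfkbia, at least 1.5 times lower for Cxcl1 and Cx3cl1, and between for Ccl2, Cxcl12, Ptgs2 and Cd14. Among all tested genes, 29.3% were so much higher and 29.5% so much lower in that library. Libraries 1 and 2 of the knockdown differed by at most 1.19 times in any member. In control libraries the highest value was under 1.3 times the lowest for 7 members, and the widest spread was that of Cxcl1, at 2.54 times. The ratio of Cxcl1 to Cxcl5 per kb was 0.589, 0.598 and 0.121 in knockdown and 0.259, 0.181 and 0.725 in control libraries, so the groups overlapped in that ratio although both genes rose. The part of the high Malat1 share of knockdown library 3 in these differences was not tested.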

How the data were processed

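Sample titles gave the groups and replicate numbers. TRIzol RNA was selected for poly(A) and sequenced as paired 150-base reads on an Illumina HiSeq, per the labels' protocols. The submitters' processing notes list DESeq2, Trimmomatic 0.36, the build GRCm38 and Subread 1.5.2 with its featureCounts. Aligner, annotation release and strand setting: not given in the sources used here. A table deposited by the authors gives a normalised signal per library, which is the gene count divided by a size factor, and the log2 fold change and p-value of the authors' own comparison.

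Whole reads could be recovered, since 100% of values were within 0.01 reads of a whole number of reads; 1 read was worth 0.829 to 1.26 normalised units. The 16245 genes that reached 10 in 3 or more libraries were tested with limma 3.58.1 in R 4.3.3 on log2(value + 1). Some genes, such as Ccl5, Ccrl2 and Il1rn, reached 10 only in the group where they were high. A large change was nearly fixed by the filter for these. The fit took all 6 libraries on the authors' scaling, allowed the variance to follow the mean, and had neither a block nor a covariate. Adding 1 understates the change of low genes. Log2 changes are knockdown minus control, and normalised counts per kb use the exonic length in GENCODE M21, whose exons of other genes overlapped none of the members. Where a group held 1 to 3 reads in all, the ratio of scaled reads has an exact 95% binomial counting interval, which covers counting error only. The script was tested on simulated data with known changes. Alternatives were other filters, pseudocounts, scalings and thresholds, a constant prior variance, DESeq2 1.42.0 and edgeR 4.0.16 fitted to the recovered reads, the replicate number as a block, and each library left out in turn.

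The members, the 8 lists of related genes and the tests were chosen with earlier results of these data known. The genes named were the members, Adamtsl2, up to 3 genes per direction and list with the smallest adjusted p, and the receptors and NF-κB subunits tied to the members; exceptions are stated where they occur. Promoter windows are from RefSeq, and those of 6 of 10 members were searched, with windows of members on chromosome 18 (Cd14) left out.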

Additional observations from a re-analysis of the deposited data

How the results depend on the processing

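The members kept their direction in every alternative run. Il6 never passed the test, with log2 changes of 0.67 to 0.90 and adjusted p of 0.15 to 0.28 under the other settings and 0.40 to 1.01 and 0.14 to 0.41 with 1 library left out; at a minimum value of 50 it was not tested. Ccl7 (log2 change 1.68, adjusted p 0.012) and Nfkbia (1.73, adjusted p 0.025) did not pass a threshold of 0.01, and the cause is the stricter threshold itself. With 1 library left out their changes were 1.26 to 1.91 and 1.17 to 2.01. Members called higher were 6 to 8 over the fits with 1 library left out, beside 2443 to 6269 of the 16245 tested genes. At the threshold of 0.01, 6 members were called higher, beside 2283 of the tested genes. In each of these runs 1 member was called lower.

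Over all tested genes, 3519 rose and 3823 fell. At the threshold of 0.01 these were 2283 and 2545, and with 1 library left out 2443 to 6269 and 2648 to 6485, the highest without knockdown library 3. Genes of the 8 lists that rose were 28 to 59 with 1 library left out, again highest without knockdown library 3, against 38 with all; the cause was not tested. edgeR called 3765 higher and 3579 lower and DESeq2 4343 and 4118. Upper-quartile scaling moved the median log2 change of all genes to 0.11. For the 43 other named genes with a test, 686 comparisons with an alternative kept their side of the threshold, 31 lost a call and 7 gained one.

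Libraries with the same replicate number did not deviate together throughout (correlations of 0.017, 0.10 and 0.14 for numbers 1, 2 and 3), so the numbers were not taken to pair the libraries. With the replicate number as a block, 3010 genes rose and 3301 fell, and 8 members were called higher and 1 lower. Ptger4, Nfkb1, Rel and Nfkbiz were not called under that block. Depth is lowest for Il6, for the control level of Cxcl1 and for the other genes with a few reads a library.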
